A study of Homo sapiens with 2 samples.

Results

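The nucleoside transporters of the SLC28 and SLC29 families were compared between 2 lines of human leukaemia cells, parental HL60 and its cytarabine-resistant derivative R-HL60. All 7 human genes of these families were represented, SLC28A1, SLC28A2, SLC28A3, SLC29A1, SLC29A2, SLC29A3 and SLC29A4, chosen by name among the 43317 names on the array. They were read by 9 of the 58201 probes, as SLC28A1 and SLC29A4 had 2 probes each and the other genes 1. HL60 is an established acute myeloid leukaemia line of promyelocytic character. The parental cells were untreated, and the resistant line was obtained by keeping HL60 in rising doses of cytarabine, a deoxycytidine analogue used against this leukaemia. Both lines grew in RPMI medium with fetal bovine serum. Whether the resistant cells were a single clone, and whether the drug was present when RNA was taken, was not stated in the sources used here. Each line was measured on 1 Agilent one-colour array, so no difference has a test, a standard error or a p-value, and the array cannot be told apart from the cell line.

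Cytarabine is hydrophilic and crosses the plasma membrane mainly through nucleoside carriers before deoxycytidine kinase phosphorylates it. The SLC29 genes encode the equilibrative nucleoside transporters, which let nucleosides pass down their gradient, and the SLC28 genes encode the concentrative transporters, which drive nucleosides inward with sodium. In acute myeloid leukaemia the SLC29A1 product, ENT1, is known as the main route of cytarabine uptake, and loss of its activity is a known form of resistance in cultured cells. The series set the resistant line against its parent to find transcripts tied to cytarabine resistance, and for the carriers the question is whether their transcripts differed between the lines.

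Transcript signals of SLC29A1, SLC29A2, SLC29A3 and SLC28A3 were close to equal on both arrays. SLC29A1 gave a strong signal that differed by 0.01 on the log2 scale between R-HL60 and HL60, and SLC29A2, SLC29A3 and SLC28A3 lay within 0.14 of 0. SLC28A1, which was dim, was 1.49-fold lower in R-HL60. SLC28A2 and SLC29A4 were not above the floor on either array. The floor was the median signal of each array, 30.7 in HL60 and 32.8 in R-HL60, because the files carry no detection flags. Of the 9 probes, 5 probes of 5 genes were above it on both arrays and 4 probes of 3 genes on neither. Of all 58201 probes, 28003 were above it on both arrays, so a signal above this floor does not by itself show expression. Differences are given as R-HL60 minus HL60 in log2 signal after each array was scaled to its own 75th percentile, 292 in HL60 and 294 in R-HL60.

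**Figure D1:**
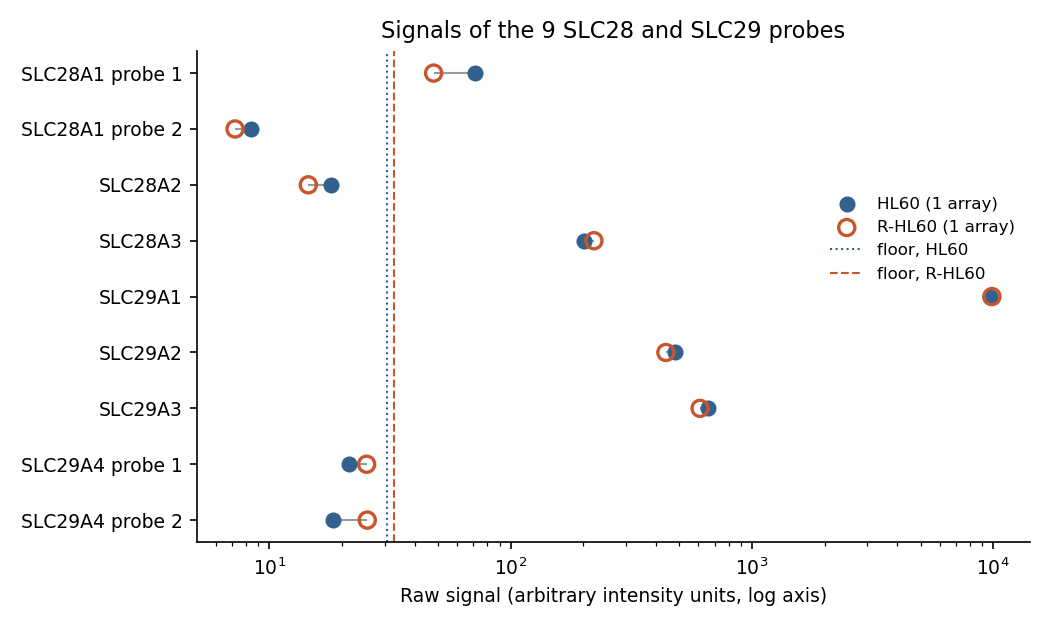
Raw signal of each of the 9 probes (horizontal log axis, arbitrary intensity units), filled points for HL60 and open circles for R-HL60, with 1 array per line and no error bars; vertical lines mark the floors of 30.7 and 32.8. The SLC29A1 points coincide near 9743 and 9875, and both SLC29A4 probes, the SLC28A2 probe and the second SLC28A1 probe lie left of the floors.

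None of the 5 probes above the floor differed by 2-fold, where 0.99% of 30197 probes above the floor on at least 1 array did. None reached 1.5-fold under this scaling either, against 4.64% of those 30197 probes, 1.33% of them being lower in R-HL60 by that much. With so few carriers a count of 0 does not set the family apart from these shares. The median difference of the 5 probes was -0.11, beside -0.03 for all 28003 probes above the floor on both arrays. Of the 5, 3 were below 0 and 2 above it, while 56.9% of those 28003 probes were below 0.

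The equilibrative carriers are described first, beginning with the cytarabine carrier. SLC29A1 had a raw signal of 9743 in HL60 and 9875 in R-HL60, 318-fold and 301-fold above the floor. Its scaled signals differed by 0.01, against a probe-to-probe SD of 0.10 for probes of this brightness, which is the spread between different probes of 1 gene. Both lines thus showed a strong SLC29A1 signal, and under this scaling the gap between them was far smaller than the probe-to-probe SD. That SD leaves out the spread between arrays and between cultures. Among the 2000 probes nearest to it in brightness, the central 95% of differences ran from -0.35 to 0.29 with a median of -0.07. In the authors' normalized table the values were 9511 and 10061, a difference of 0.08, which was closer to that SD. Over 6 scalings the difference ran from 0.01 to 0.08. The differences of those neighbouring probes can hold differences between the lines as well as measurement error, so their range is not a detection limit. With 1 array per line, the smallest change of SLC29A1 transcript that could be seen is not known. Transporter protein, its place in the membrane, its sequence and nucleoside uptake were not measured.

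SLC29A2 encodes ENT2, which carries nucleosides and also nucleobases. Its signal was 481 in HL60 and 440 in R-HL60, lower in R-HL60 by a log2 difference of -0.14 with a probe-to-probe SD of 0.16. SLC29A3 encodes ENT3, a carrier of intracellular membranes such as those of lysosomes. Its signal was 655 in HL60 and 610 in R-HL60, a difference of -0.11 with the same SD of 0.16. Both genes were well above the floor, by 13.4-fold or more, and both were slightly lower in R-HL60 by less than the spread between probes. Of the 2000 probes of like brightness, 25.9% had a lower difference than SLC29A2 and 31.6% a lower one than SLC29A3.

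SLC29A4 encodes ENT4, also called the plasma membrane monoamine transporter, which moves monoamines and, at acid pH, adenosine. One of its probes read 21.3 in HL60 and 25.3 in R-HL60, and the other read 18.3 and 25.4. All 4 readings were below the floors, so no fold is given. Both probes read higher in R-HL60, but signals in this range have no settled order.

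Of the concentrative carriers, SLC28A1 and SLC28A3 were above the floor on both arrays and SLC28A2 on neither. SLC28A3 encodes CNT3, which accepts both purine and pyrimidine nucleosides. Its signal was 201 in HL60 and 221 in R-HL60, above the floor by 6.57-fold and 6.74-fold. The difference of 0.13 was the highest among the 5 carriers above the floor and smaller than its probe-to-probe SD of 0.19. SLC28A2 encodes CNT2, which prefers purine nucleosides, and its probe read 18.0 in HL60 and 14.5 in R-HL60, below the floor on both.

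SLC28A1 encodes CNT1, which prefers pyrimidine nucleosides and so accepts deoxycytidine-like molecules. Its brighter probe read 70.8 in HL60 and 47.9 in R-HL60, which is 2.31-fold and 1.46-fold above the floor. The log2 difference of -0.57 was the lowest among the 5 carriers above the floor and 1.99 times the probe-to-probe SD of 0.29 for such dim probes. It lay at the edge of the central 95% of the 2000 probes of like brightness, which ran from -0.56 to 0.90, and 2.25% of those probes were lower. The other SLC28A1 probe read 8.36 in HL60 and 7.21 in R-HL60, below the floor on both arrays, so the lower signal was measured by 1 probe only. The size of this difference depended on the scaling. It was -0.63 with quantile normalization and in the authors' normalized table, where the values were 72.5 and 46.7, and -0.60 after loess, all past 1.5-fold. It was -0.31 with an offset of 50 units, which shrinks differences between dim signals.

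**Figure D2:**
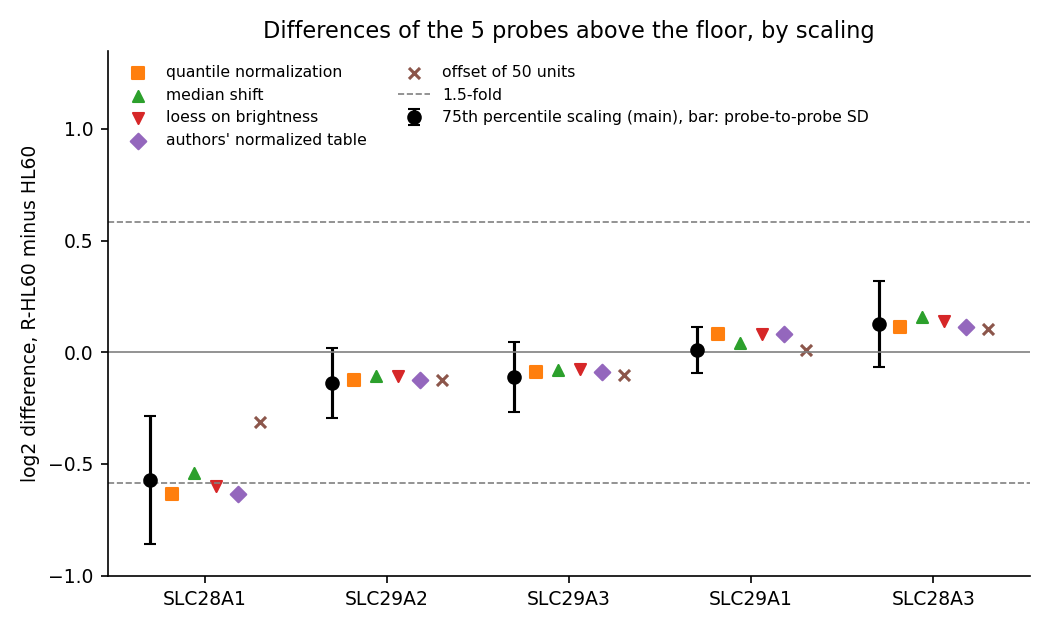
Log2 difference, R-HL60 minus HL60, of the 5 probes above the floor on both arrays (vertical axis) under 6 scalings (symbols); bars on the black points are 1 probe-to-probe SD for probes of that brightness, and dashed lines mark 1.5-fold. SLC28A1 runs from -0.63 to -0.31 and crosses the lower dashed line under some scalings, and the other 4 stay between -0.14 and 0.16.

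In the order of differences SLC28A1 was lowest, followed by SLC29A2, SLC29A3, SLC29A1 and SLC28A3. No step between neighbours in this order exceeded 1.33 times the combined probe-to-probe SD of the pair. The step from SLC28A1 to SLC29A2 was 0.44, and the other steps ran from 0.02 to 0.12. The step from SLC28A1 to SLC29A2 thus exceeded the combined SD of its pair, and each other step was smaller than that of its pair. Steps between neighbours in a sorted order are small by construction, so they do not compare carriers further apart. The carriers' signals were not ranked against each other, as the brightness of a probe depends on its sequence as well as on the transcript.

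**Figure D3:**
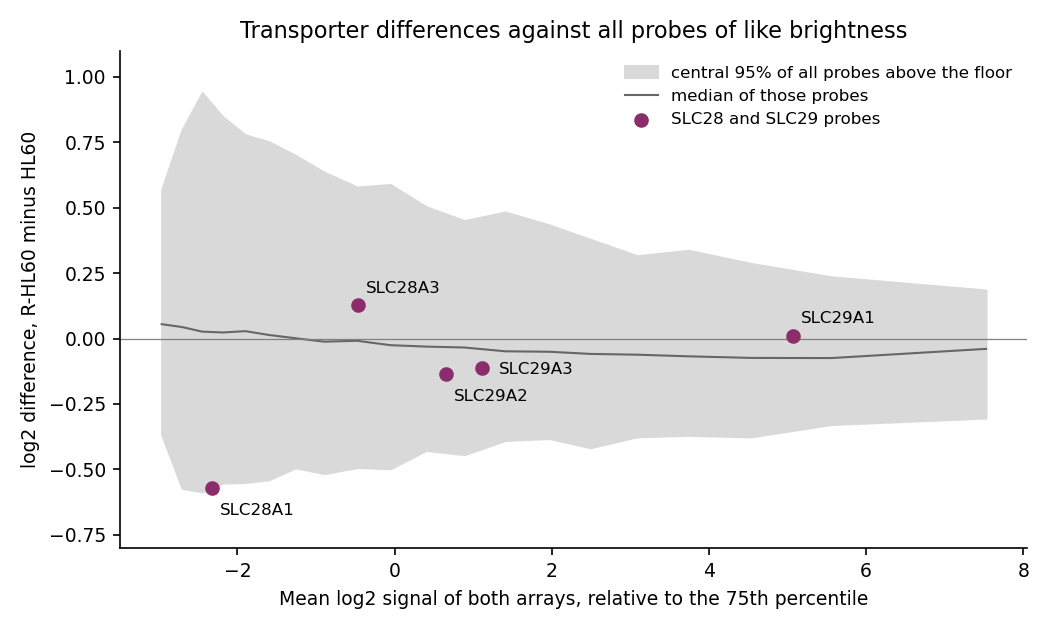
Log2 difference, R-HL60 minus HL60 (vertical axis), against mean log2 signal of both arrays relative to the 75th percentile (horizontal axis) for the 5 carrier probes above the floor; the grey band and line are the central 95% and the median of all 28003 such probes in 20 brightness bins. SLC28A1 sits at the lower edge of the band at -0.57 and the other 4 lie inside it.

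The other genes of nucleoside transport and cytarabine handling formed 5 lists of 55 genes in all, of which 45 were above the floor on both arrays and 2 more on 1 array. Over the whole array, 21838 of 43270 genes were above it on both. None of these 47 reached 1.5-fold in either direction, against 4.91% of 23531 genes each read by its brightest probe, and none reached 2-fold, against 1.08%. ADA and UPP1, above the floor in HL60 only, have a bound in place of a difference, so a larger difference of theirs could not be seen. Read by the brightest probe of each gene, the differences of the other 45 ran from -0.30 to 0.29 with a median of -0.04. The median of the 21838 genes above the floor on both arrays was -0.03.

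One list held 10 other carriers, most of them with reported transport of nucleosides, nucleotides, nucleobases or related molecules. It included SLC23A1 and SLC23A2, whose human products carry ascorbate. Of the 10, 8 were above the floor on both arrays and their median was -0.13. The lowest was SLC25A33, a mitochondrial pyrimidine nucleotide carrier, from 10937 in HL60 to 8943 in R-HL60, a difference of -0.30 with a probe-to-probe SD of 0.10. The highest was the organic cation transporter gene SLC22A2 at 0.29, from 47.3 to 58.1, with an SD of 0.29. Of 5 efflux pump genes 4 were above the floor, from ABCC5 at -0.16 to ABCG2 at 0.06. The 3 probes of ABCC5 ranged from -0.20 to 0.11, so they did not share a direction. The brightest probe of ABCC10 gave -0.04, and its 3 probes ranged from -0.04 to 0.33.

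All 15 kinase genes were above the floor on both arrays, with a median of -0.02. DCK, the kinase that makes cytarabine monophosphate once the carriers have let the drug in, read 993 in HL60 and 991 in R-HL60, a difference of -0.01. The extremes were TK2, the mitochondrial thymidine kinase, at -0.15 and NME6, of the nucleoside diphosphate kinase family, at 0.21. TK2 was dim, at 46.8 in HL60 and 42.5 in R-HL60, and its difference was smaller than its probe-to-probe SD of 0.28. NME6 read 478 and 557, with an SD of 0.16. Of 16 genes of inactivation and dephosphorylation, 9 were above the floor on both arrays, with a median of -0.04. CDA, which deaminates cytarabine, read 82.0 and 81.9, a difference of -0.01. SAMHD1, which hydrolyses cytarabine triphosphate, was the lowest of these 9 at -0.16, and its 2 probes gave -0.16 and -0.15. DCTD, the deoxycytidylate deaminase, was the highest of the 9 at 0.29, from 3118 to 3829, with an SD of 0.13. ADA, the adenosine deaminase, had a bound of -0.26. The 9 genes of nucleotide supply had a median of -0.06, between UMPS, of pyrimidine synthesis, at -0.23 and the ribonucleotide reductase subunit gene RRM2B at 0.10, whose other probe gave -0.20.

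**Figure D4:**
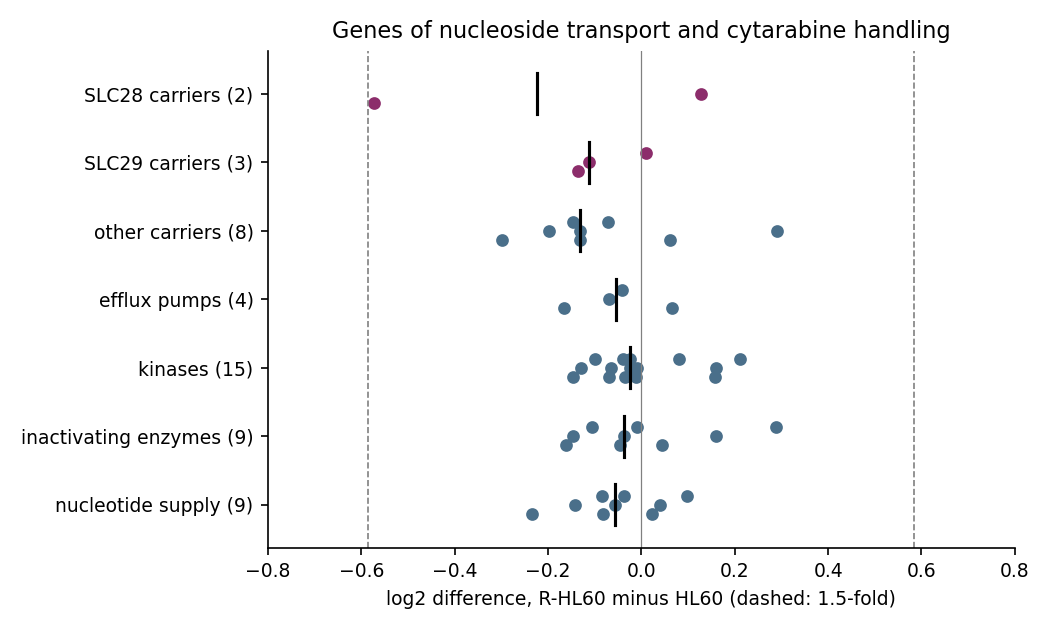
Log2 difference, R-HL60 minus HL60 (horizontal axis), of each gene above the floor on both arrays, by list (rows, number of genes in brackets); black ticks are list medians and dashed lines mark 1.5-fold. All points lie between the dashed lines, and SLC28A1 at -0.57 is the one nearest to them.

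The labelled cell type was checked on markers. All 8 promyelocytic markers with a row were above the floor on both arrays, with summed signals of 822001 in HL60 and 733123 in R-HL60. Of these, 2 were past 1.5-fold lower in R-HL60, the granule protease genes ELANE at -2.20 and PRTN3 at -0.80. Among the 23531 genes above the floor on at least 1 array, 4.91% were past 1.5-fold in either direction. Of the lymphoid markers 6 of 7 were above the floor on both arrays (summed signals 9347 and 12499), and 1 was past 1.5-fold higher in R-HL60, CD3D at 0.65, from 3923 to 6201. Counts for the other lineages were 4 of 5 erythroid or megakaryocyte (1092 and 1132), 3 of 5 epithelial (1670 and 1874) and 1 of 6 fibroblast markers (108 and 124), with a further fibroblast marker above it in R-HL60 only. Of these, 1 was past 1.5-fold, the epithelial keratin gene KRT19 at 0.78, from 39.6 to 68.5. By this floor, 21838 of all 43270 genes were above it on both arrays, so these counts do not by themselves show that a lineage was expressed. The sums describe each list across the 2 arrays and do not compare lists. EPCAM, CDH1, COL3A1 and LUM read 2.11 or less on both arrays. The other fibroblast markers were brighter. In HL60 and R-HL60, PDGFRB read 50.6 and 57.3, DCN 22.2 and 37.7, COL1A1 24.5 and 19.2, and COL1A2 6.88 and 7.02. The keratin genes KRT8 and KRT18 were well above the floor on both. KRT8 read 819 in HL60 and 936 in R-HL60, and KRT18 read 807 and 867. The part of these markers in the carrier signals was not tested.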

How the data were processed

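RNA of HL60 and R-HL60 was taken with TRIzol, amplified and labelled with Cy3, per the labels' protocols, and read with Agilent Feature Extraction 10.7.3.1, per the submitters' processing notes. The authors deposited 1 linear intensity per probe and array with a gene name, and a table of normalized intensities. Scanner column, background treatment, normalization method and genome build were not stated (not given in the sources used here). Rank by rank, the table departed by at most 0.515% from the average of the 2 raw arrays, and for the carriers it gave the differences of quantile normalization. The 3 files list the same names in the same order, and probes were matched by that order.

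Signals were taken to log2 and the array's 75th percentile was subtracted. The floor was the array median. Probes above it on 1 array have a bound only. The members, lists and naming rule were chosen with earlier results of these data known. All 7 carriers were named with every probe; from each other list the highest and lowest gene above the floor were named, with DCK, CDA and SAMHD1. File names were updated through a RefSeq table of GRCh38.p14, used for names and gene order only. The probe-to-probe SD came from 4723 genes with several probes, in 10 brightness bins. The 2000 nearest probes replaced 500 after the edge proved unstable with 500. The scaling steps were tested on simulated data with changes placed in brighter probes. Dim probes such as those of SLC28A1 were given no change there. Neither the probe-to-probe SD nor the range of the nearest probes was tested in that way. With 1 array per line the number of arrays limits the precision. Python 3.11.15, numpy 2.4.6, pandas 2.3.3, statsmodels 0.14.6 and matplotlib 3.10.9 were used. Probe and protein sequences were not used here.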

Additional observations from a re-analysis of the deposited data

How the results depend on the processing

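No paired analysis was possible because each line had 1 array. The count of carrier probes past 1.5-fold was 0 with scaling to the 75th percentile and 1, SLC28A1, with quantile normalization, after loess and in the authors' table. The count of other pathway genes past 1.5-fold was 0, but 1, UPP1, with the floor at the 40th percentile and 4 without a floor, all of them dim. The number of carriers with several probes above the floor was 0, but 1, SLC29A4, with the floor at the 40th percentile and 2 without a floor. No carrier passed 2-fold under any of the 8 alternatives, and the 5 carriers above the floor kept their sign under all 6 scalings. With the 500 nearest probes, the lower edge for SLC28A1 was -0.49 and 1.80% of them were lower.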

Other observations

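Rows named after carriers but standing for other transcripts were read as well. The non-coding transcript lnc-SLC29A3-1 read 21.3 in HL60 and 40.9 in R-HL60, above the floor in R-HL60 only, with a bound of 1.33-fold higher there. This bound came from 1 probe close to the floor and carries the error of dim probes. Of all 58201 probes, 1097 were above the floor in R-HL60 only. Both rows of lnc-SLC29A4-1 were below the floor on both arrays. SLC29A3 itself differed by -0.11.

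The 10 protein-coding genes nearest to each carrier in the reference order, 5 on each side and above the floor on both arrays, were read beside it. Their median differences ran from -0.17 beside SLC28A2 to 0.04 beside SLC28A3. Beside SLC29A1 the median was 0.01 and the range -0.23 (SLC35B2) to 0.27 (NFKBIE). Beside SLC28A1 the median was -0.00, with ZNF592 lowest at -0.34 and AKAP13 highest at 0.41. Of the 70 neighbours, 1 was past 1.5-fold, NTRK2 beside SLC28A3 at 0.69. Among the 23531 genes above the floor on at least 1 array, 4.91% were past it. That set is wider than the neighbours, which were above the floor on both arrays.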
